A study of Mus musculus with 2 samples.

Results

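Hair cells are the sensory receptors of the cochlea, and 58 of the 1975 cells kept from a droplet single-cell RNA sequencing survey of the mouse cochlea were called hair cells here. A cell was a member when at least 3 of 6 genes had 1 or more UMIs (unique molecular identifiers, 1 per captured transcript) in it. The 6 genes were Otof, Slc17a8, Pou4f3, Lhfpl5, Tmc1 and Bdnf. The cells were thus selected on the measured UMIs of these 6 genes, whose levels are given below as a description, with no test.

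The survey holds 1 group of 2 libraries from cochleae of wild type C57BL/6 mice at postnatal day 20, after the onset of hearing, with no treatment. The labels give 5 to 8 mice and dissociation by trypsin, and do not say whether the libraries came from separate animals. Every p-value thus measures only a spread between these libraries, which may be technical. In the fit it is the spread left after the average difference of the libraries is removed. It has 5 residual degrees of freedom per gene and is estimated from all 6 classes of cells together. The fit also shares the spread across genes, and the median prior degrees of freedom were infinite. For such genes the spread was taken wholly from the trend over all genes, not from the gene's own 5 degrees of freedom. After cells with under 300 genes or over 20% mitochondrial UMIs were removed, library 1 kept 1331 of 1610 barcodes and library 2 kept 644 of 720. The libraries shared 2 barcodes, and 0 of them belonged to hair cells.

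Hair cells turn the bending of an actin-filled bundle on their apical surface into an ion current through mechanotransduction channels, which are pulled open by fine tip links. Inner hair cells pass the signal to the auditory nerve at ribbon synapses, where vesicles are filled with glutamate. Outer hair cells change length with voltage, amplify sound and receive cholinergic input from the brainstem. Neither type is replaced after loss in the adult mammal.

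Library 1 held 54 hair cells, 4.06% of its kept cells (exact binomial 95% interval 3.06% to 5.26%), and library 2 held 4, or 0.621% (0.169% to 1.58%). The summed UMIs were 879168 in library 1 and 36019 in library 2, so every value of library 2 rests on few cells and few counts. The median depth of a hair cell was 14232.5 UMIs over 3901 detected genes in library 1 and 9485 over 3399 in library 2. These intervals, like all intervals below, cover counting error only.

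Few cells lay near the threshold. Of the kept cells, 1057 in library 1 and 619 in library 2 had 0 of the 6 genes, while 33 and 1 had all 6. Just inside the threshold, 4 cells had exactly 3 of the genes, with 8 to 31 UMIs of the 6 genes together (median 22). Just outside it, 13 cells of library 1 had exactly 2 genes, with 2 to 3 UMIs together.

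For comparison, the cells that were not members were given to 5 classes by fixed markers, as set out in the methods. Otic epithelium, the class nearest to hair cells in origin, had 95 cells in library 1 and 20 in library 2. The other classes were Coch-expressing mesenchyme (303 and 224 cells), fibroblasts (255 and 233), erythroid cells (297 and 23) and leukocytes (198 and 18), and 129 and 122 cells stayed unassigned.

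Of the 6 supplied markers of the label, 5 (Otof, Slc17a8, Pou4f3, Lhfpl5 and Tmc1) chose the cells and cannot check it, which leaves Acbd7. Because it was supplied with the label and gene lists were chosen with earlier results of these data known, it is no independent check. Acbd7, which encodes an acyl-CoA binding domain protein, had a UMI in all 54 hair cells of library 1 and all 4 of library 2. Its promoter and that of Slc17a8, which encodes the vesicular glutamate transporter VGLUT3 and differed widely among the hair cells, are shown here as the 250 bases before the RefSeq start on the gene's own strand, 5′ to 3′ (RefSeq, GRCm38.p6). Of the 6 genes of the rule, 4 had an entry in the RefSeq table. Capitals mark each match to the E-box CAGNTG on either strand, the type of site that basic helix-loop-helix factors such as ATOH1 bind.

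Slc17a8 (chr10:89621250-89621499, minus strand): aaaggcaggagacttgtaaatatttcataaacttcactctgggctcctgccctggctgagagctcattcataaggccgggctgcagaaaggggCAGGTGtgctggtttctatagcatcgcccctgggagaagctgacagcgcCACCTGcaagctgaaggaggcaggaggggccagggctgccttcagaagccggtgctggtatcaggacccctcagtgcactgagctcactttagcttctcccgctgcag
Acbd7 (chr2:3335918-3336167, plus strand): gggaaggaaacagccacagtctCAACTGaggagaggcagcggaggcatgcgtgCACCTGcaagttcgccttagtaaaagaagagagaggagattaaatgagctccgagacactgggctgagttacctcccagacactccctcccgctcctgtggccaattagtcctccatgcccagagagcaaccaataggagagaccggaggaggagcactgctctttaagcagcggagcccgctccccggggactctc

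Each of the windows held 2 matches to CAGNTG and 0 matches to ATTAAT or AAATCA, motifs searched for POU and GFI1 factors on both strands. A match to CAGNTG stood in 44.82% of all 32841 windows of this length in the RefSeq table, to ATTAAT in 4.39% and to AAATCA in 12.43%. A match describes the letters of a window and is not evidence of binding.

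Otof encodes otoferlin, the calcium sensor of vesicle release in hair cells (ENSMUSG00000062372, chr5:30367062-30461932, minus strand, GRCm38). It had 1633 UMIs in the hair cells of library 1 and 120 in those of library 2, or 1857 and 3332 CPM (UMIs of the gene per 1000000 UMIs of the class; exact Poisson 95% intervals 1768 to 1950 and 2762 to 3984). The lowest, median and highest cell had 1, 28 and 82 UMIs in library 1, and 15, 31 and 43 in library 2. Every hair cell had a UMI of Otof, against 5.22% of otic epithelium cells and 7.19% of erythroid cells. Thinned to 5000 UMIs per cell, these shares were 98.3%, 4.50% and 5.10%. Median depths were 11855 and 9637.5 UMIs in otic epithelium and 10959 and 13156 in erythroid cells. Erythroid cells are not known to use the gene, and the epithelial share was below theirs. Whether the epithelial share was background was not tested.

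Slc17a8 (ENSMUSG00000019935, chr10:89574020-89621253, minus strand) had 965 and 73 UMIs in the hair cells of libraries 1 and 2, or 1098 and 2027 CPM. It was seen in 46 of 54 and 4 of 4 hair cells, with a median of 18.5 UMIs in library 1 and 17 in library 2, and 8 hair cells of library 1 had none. Otic epithelium had 7.33 and 0 CPM. Thinned to 5000 UMIs, 79.3% of hair cells had a UMI of Slc17a8, against 3.60% of otic epithelium and 0.955% of erythroid cells.

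Pou4f3, a transcription factor needed for hair cell survival (ENSMUSG00000024497, chr18:42394539-42397249, plus strand), was at 620 CPM in library 1 and 888 CPM in library 2, against 0.733 and 0 CPM in otic epithelium. Lhfpl5, a subunit of the transduction channel complex (ENSMUSG00000062252, chr17:28575641-28585679, plus strand), was at 581 and 777 CPM, against 2.20 and 0 CPM in otic epithelium. Tmc1, which forms the pore of the channel (ENSMUSG00000024749, chr19:20783458-20954202, minus strand), was at 111 and 167 CPM and was seen in 38 of 54 and 1 of 4 hair cells. Bdnf, a neurotrophin (ENSMUSG00000048482, chr2:109674700-109727007, plus strand), was at 221 and 389 CPM, against 10.3 and 0 CPM in otic epithelium. For all 6 genes, the level in hair cells of either library stood above that in every other class of either library.

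**Figure D1:**
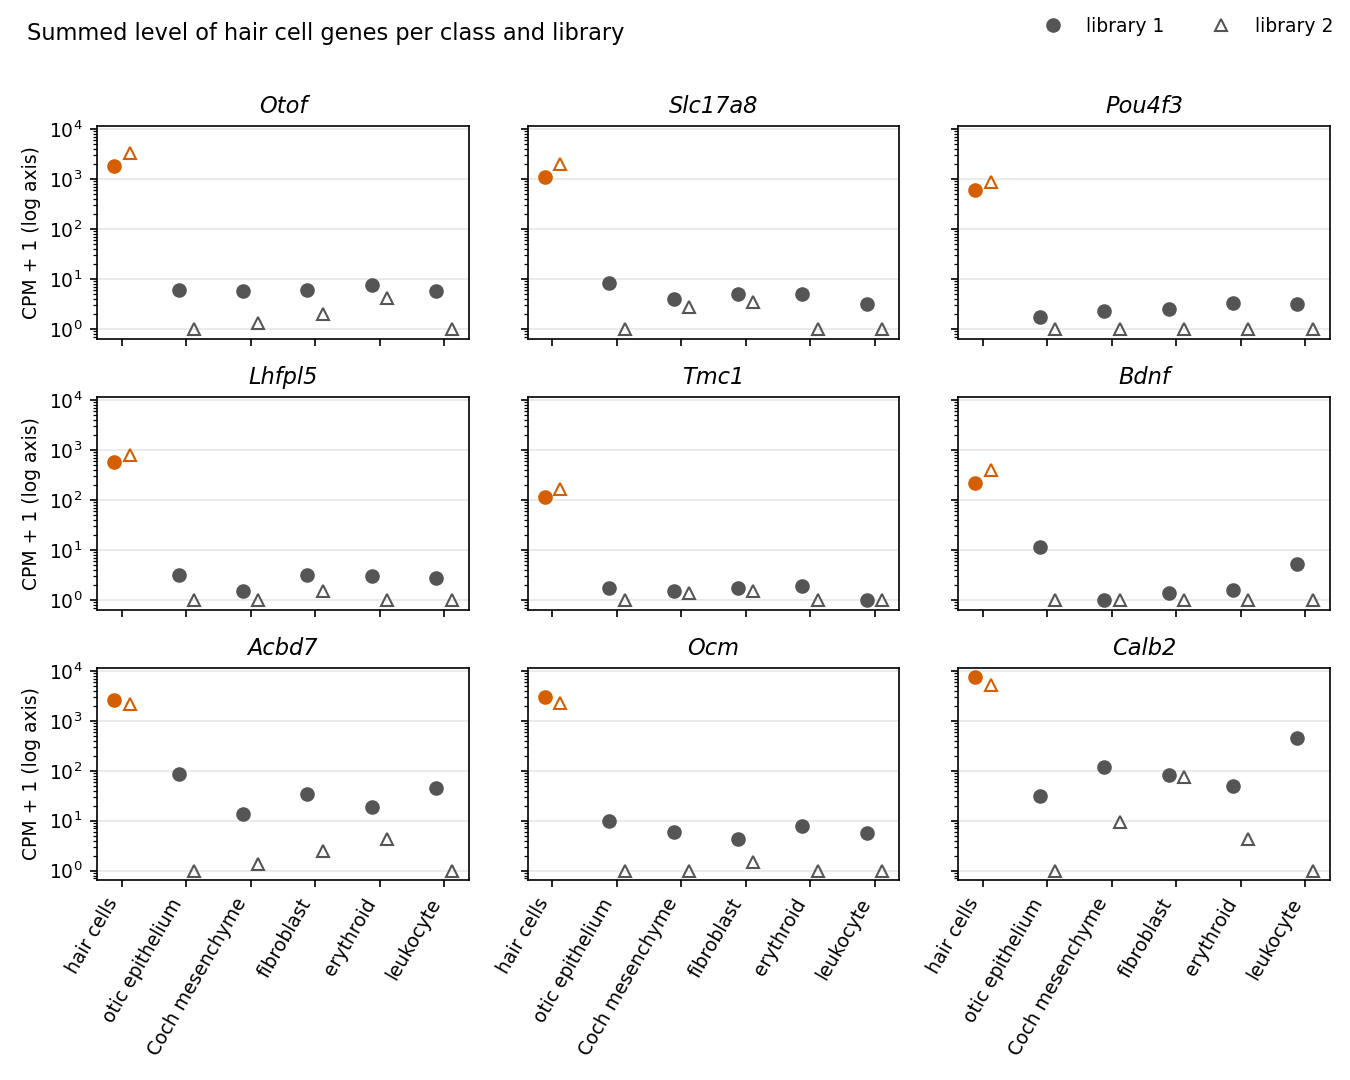
Level of 9 genes in summed counts (CPM + 1, logarithmic axis) per class, with filled circles for library 1 and open triangles for library 2; hair cells are the leftmost class. Otof, Slc17a8, Pou4f3, Lhfpl5, Tmc1 and Bdnf chose the hair cells, while Acbd7, Ocm and Calb2 did not, and all 9 were higher in hair cells of both libraries than in any other class, as with Acbd7 at 2651 and 2166 CPM in hair cells against at most 84.3 CPM elsewhere.

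Genes that the rule did not use were tested between hair cells and the other classes. Counts were summed per library and class and fitted with edgeR's quasi-likelihood test with the library as a replicate block, and 12286 genes were tested with Benjamini-Hochberg adjustment and a threshold of 0.05. The filter on low counts used sums that included the hair cells, so a gene could enter the test through hair cells alone. Of the genes tested, 612 had 0 UMIs in otic epithelium and could not be called lower there. The counts of higher genes in the lists below are to be read with this limit. Against otic epithelium, 1155 genes were higher in hair cells (9.40% of those tested) and 1115 were lower (9.08%). Against the unweighted mean of the 5 other classes, 2055 genes were higher (16.7%) and 1906 lower (15.5%). The comparisons share the hair cell sums and are given side by side below, with the first always against otic epithelium. CPM values are not scaled by the fit's normalization factors, which in library 2 were 2.48 for hair cells and 1.38 for otic epithelium. The median log2 fold change of all genes was -0.11 against otic epithelium (-0.19 with genes at 0 in the epithelium set to their bound) and -0.19 against the 5 classes. With DESeq2 size factors the median against the 5 classes moved to -0.05. The medians were -1.78 and -2.56 without the hair cells of library 1, and -0.97 and -1.23 without 48 hair cells that had at least 3 markers of any other class list, so single values from those fits are to be read against them.

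The counts depend on the library 1 sums. Without the hair cells of library 1 the fit called 353 genes higher and 326 lower than in otic epithelium, and 429 higher and 324 lower than in the 5 classes, where the single sum left was assumed to vary like the other classes. Without the otic epithelium of library 1 it called 351 and 456 against otic epithelium. With no replicate block the calls were 764 and 505 against otic epithelium and 1681 and 1253 against the 5 classes. When those 48 hair cells were left out, 444 genes were higher than in otic epithelium and 565 higher and 776 lower than in the 5 classes.

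Acbd7 (ENSMUSG00000026644, chr2:3336168-3340993, plus strand) had 2651 CPM (2545 to 2761) in hair cells of library 1 and 2166 CPM (1712 to 2703) in those of library 2, against 84.3 and 0 CPM in otic epithelium. The lowest, median and highest hair cell had 2, 39.5 and 110 UMIs in library 1, and 11, 16.5 and 34 in library 2. Cells with exactly 1 gene of the rule, which are not hair cells here, had up to 34 UMIs, so single cells overlapped. Between the summed counts the log2 fold change was 6.16 ± 0.64 (edgeR, adjusted p = 7.08e-20), or 7.03 ± 0.36 against the 5 classes (3.04e-82). Here and below, the value after ± is a standard error (SE) derived from the test's F statistic. Fitted with no replicate block, the value against otic epithelium was 5.13 with adjusted p = 0.19.

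Mechanotransduction and tip link genes were higher in hair cells. Of 19 genes, 12 had enough counts to be tested, and 11 were higher than in otic epithelium, 0 lower and 1 not called, with a median log2 fold change of 5.90 (5.05 with bounds). Of these 12, 4 had 0 UMIs in otic epithelium. In the lists below, so had 5 of 22 tested actin core genes, 3 of 17 synapse genes, 2 of 15 channel genes and 3 of 13 transcription factors. Against the 5 classes all 12 were higher, with a median of 5.81. Cib2, a calcium-binding protein that binds the channel, was at 3357 CPM in library 1 and 4414 in library 2, against 64.5 and 62.3 CPM in otic epithelium. Its log2 fold changes were 5.49 ± 0.60 (adjusted p = 5.81e-18) and 6.34 ± 0.33. Tomt, needed to carry the channel to the bundle, had 178 and 5 UMIs in hair cells and 0 in otic epithelium, and so was at least 105-fold higher.

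Myo7a, the motor that tensions the tip link, was at 250 CPM in hair cells of library 1 and 167 in those of library 2, against 5.13 and 9.58 CPM in otic epithelium (log2 fold change 5.12 ± 0.49, adjusted p = 1.27e-22). Whrn, a scaffold of the stereocilium tip, gave 6.32 ± 0.67 and 5.01 ± 0.36. Pcdh15, a tip link cadherin, stood at 53.5 and 55.5 CPM in hair cells, against 38.1 and 43.1 CPM in otic epithelium, and was not called there (0.21 ± 0.42, adjusted p = 0.81), while against the 5 classes it gave 2.25 ± 0.39. Scaled by the fit's factors, its log2 difference from otic epithelium was 0.35 in library 1 and -0.46 in library 2. Tmc2 and Cib3, relatives of Tmc1 and Cib2, had 0 UMIs in all hair cells. A count of 0 in 915187 UMIs allows up to 3 counts. The count fell to 5 of 12 genes without the otic epithelium of library 1, and to 6 of 9 without the hair cells of library 1. Without the 48 hair cells with other class markers it was 4 of 7, with a median of 2.87.

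Most genes of the hair bundle's actin core were also higher. Of 26 listed genes 22 were tested, and 17 were higher than in otic epithelium, 1 lower and 4 not called, with a median of 3.83. Relative to the 5 classes, 18 were higher and 1 lower, with a median of 4.98. Espn, which bundles and lengthens actin, was at 611 CPM in hair cells of library 1 and 1222 in those of library 2, against 8.80 and 0 CPM in otic epithelium. Its log2 fold changes were 6.41 ± 0.53 (adjusted p = 1.12e-30) and 6.48 ± 0.30. Fscn2, another cross-linker, gave 6.05 ± 0.52 and 6.75 ± 0.31.

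Myo6, the motor at the base of the bundle, was at 980 and 2443 CPM in hair cells, against 59.4 and 91.0 CPM in otic epithelium (3.93 ± 0.52, adjusted p = 5.05e-12). Strc, which encodes stereocilin and links outer hair cell stereocilia to each other and to the tectorial membrane, had 42 and 4 UMIs in hair cells and 0 in otic epithelium, and was at least 26.4-fold higher. With the DESeq2 Wald test Strc was not called against otic epithelium (adjusted p = 0.33). Grxcr1, a glutaredoxin-like bundle protein, had 47 and 1 UMIs in hair cells and 0 in all 5 classes. It was at least 374-fold higher than in the 5 classes pooled, and at least 27.5-fold higher than in otic epithelium alone. Pls3, a plastin of wider use, fell by 1.90 on the log2 scale against otic epithelium (7 and 0 UMIs in hair cells, against 37 and 4; adjusted p = 0.022), a call that was lost without the hair cells of library 1 (adjusted p = 0.46), without the otic epithelium of library 1 (0.60) and with no replicate block (0.066). The count was 11 of 24 without the otic epithelium of library 1 and 7 of 14 without the 48 hair cells with other class markers.

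Ribbon synapse and release genes were higher in part. Of 24 genes 17 were tested, and 8 were higher than in otic epithelium, 0 lower and 9 not called, with a median of 2.21 that dropped to 0.78 with bounds. Against the 5 classes 12 were higher, 1 lower and 4 not called, with a median of 1.44. Cabp2, a calcium-binding protein that keeps the release channel available, was at 1161 CPM in library 1 and 777 in library 2, against 9.53 and 0 CPM in otic epithelium (7.22 ± 0.63, adjusted p = 1.50e-27). Rimbp2, a scaffold of the active zone, had 47 and 1 UMIs in hair cells and 0 in otic epithelium, at least 27.5-fold higher, and was not called without the otic epithelium of library 1 (adjusted p = 0.51). Ctbp2, which yields the ribbon protein RIBEYE from an alternative start that these counts cannot separate, stood at 40.9 and 111 CPM against 24.9 and 19.2 CPM in otic epithelium (0.78 ± 0.46, adjusted p = 0.25). Without the otic epithelium of library 1, 2 of 20 genes were called higher than in the epithelium, and without the hair cells of library 1, 4 of 18 were called against the epithelium and 3 of 18 against the 5 classes.

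Most ion channels and pumps were higher. Of 19 genes 15 were tested, and 11 were higher than in otic epithelium, 1 lower and 3 not called, with a median of 3.62. Relative to the 5 classes, 14 were higher and 0 lower, with a median of 4.64. Kcna10, a voltage-gated potassium channel of hair cells, was at 508 CPM in hair cells of library 1 and 1249 in those of library 2, against 1.47 and 0 CPM in otic epithelium, with log2 fold changes of 8.78 ± 0.67 (adjusted p = 6.57e-36) and 7.99 ± 0.32. Kcnma1, the large-conductance potassium channel that appears at the onset of hearing, had 82 and 5 UMIs in hair cells and 0 in otic epithelium, at least 49.8-fold higher. Atp2a3, a calcium pump of the endoplasmic reticulum, was at 714 and 1027 CPM in hair cells, against 3.67 and 0 CPM in otic epithelium (7.93 ± 0.63, adjusted p = 3.42e-33). With the otic epithelium of library 1 left out, 7 of 16 genes were called higher than in the epithelium, and without the 48 hair cells with other class markers 7 of 12.

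Calcium buffers were higher with exceptions. All 10 listed genes were tested, and 7 were higher than in otic epithelium, 2 lower and 1 not called, with a median of 3.75. Against the 5 classes 7 were higher, 1 lower and 2 not called, with a median of 3.87. Pvalb, parvalbumin, was at 1230 CPM in library 1 and 1277 in library 2, against 8.80 and 0 CPM in otic epithelium (8.07 ± 0.72, adjusted p = 2.99e-26), and Calb2, calretinin, at 7458 and 5192 CPM against 30.8 and 0 CPM (8.59 ± 0.80, adjusted p = 2.94e-19). With no replicate block these gave adjusted p = 0.09 for Pvalb and 0.11 for Calb2, and without the hair cells of library 1 Calb2 gave 0.084. S100a1, an EF-hand calcium-binding protein, fell by 3.73 on the log2 scale (7412 and 2804 CPM in hair cells, against 37009 and 36820 CPM in otic epithelium; SE 0.61, adjusted p = 3.52e-08; with no replicate block 0.23), but was not called against the 5 classes (0.15 ± 0.42, adjusted p = 0.86).

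Transcription factors went in both directions. Of 21 genes 13 were tested, and 5 were higher than in otic epithelium, 4 lower and 4 not called, with a median of 0.10, while 11 were higher than in the 5 classes and 0 lower, with a median of 1.82. Gfi1, a repressor that keeps hair cells from taking on neuronal genes, had 171 and 7 UMIs in hair cells and 0 in otic epithelium, at least 102-fold higher, and gave 8.39 ± 0.43 against the 5 classes. Barhl1, a homeobox factor of hair cell maintenance, had 38 and 5 UMIs in hair cells and 0 in otic epithelium, at least 24.6-fold higher. With the DESeq2 Wald test, Gfi1 and Barhl1 lost their calls against otic epithelium (adjusted p = 0.28 and 0.44) and against the 5 classes (0.11 and 0.14). Atoh1, which starts hair cell development, had 1 UMI in all hair cells together, and Lhx4 and Insm1 had 0.

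Sox2, a factor of supporting cells and sensory progenitors, was at 109 and 27.8 CPM in hair cells, against 237 and 196 CPM in otic epithelium (-1.73 ± 0.42, adjusted p = 0.000618), and higher than in the 5 classes (2.23 ± 0.35). Tbx2, a factor of inner hair cells, was at 285 and 111 CPM in hair cells, against 104 and 62.3 CPM in otic epithelium (1.17 ± 0.38, adjusted p = 0.014), and gave 4.13 ± 0.30 against the 5 classes. Scaled by the fit's factors, its log2 difference from otic epithelium was 1.32 in library 1 but -0.014 in library 2. The epithelial difference of Tbx2 was -0.60 (adjusted p = 0.79) without the hair cells of library 1, in a fit whose median over all genes was -1.78, and was lost without the otic epithelium of either library (adjusted p = 0.12 without library 1, 0.076 without library 2) and with no replicate block (0.12), and its difference from the 5 classes was lost without the hair cells of library 1 (0.21). Sox2 against otic epithelium was lost without the hair cells of library 1 (adjusted p = 0.087) and with no replicate block (0.26), and against the 5 classes it gave 0.69 (adjusted p = 0.90) without the hair cells of library 1, where the median of all genes was -2.56. Without the hair cells of library 1, 1 of 13 factors was called higher in either comparison, and with no replicate block 3 were higher and 0 lower than in otic epithelium and 6 higher than in the 5 classes.

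Outer and inner hair cell genes were both present. Of 12 outer hair cell genes 11 were tested, with 7 higher than in otic epithelium, 1 lower and 3 not called (median 4.15), and 9 higher than in the 5 classes (median 3.83). Of 10 inner hair cell genes 7 were tested, with 6 higher than in otic epithelium and 1 not called (median 7.24), and all 7 higher than in the 5 classes (median 6.25). Without the hair cells of library 1, 3 of these 7 were called in either comparison, and with no replicate block 3 against otic epithelium. Slc26a5, prestin, the voltage-driven motor of outer hair cells, had 17 UMIs in 5 hair cells of library 1 and 0 in library 2. Vestibular hair cell genes were mixed, with 2 of 5 tested genes higher and 2 lower in either comparison (medians -1.69 and -1.20), and Skor1 and Mapt, both listed for vestibular hair cells, had 0 UMIs in hair cells. The 2 higher genes were Kcna10 and Calb2, which cochlear hair cells of the young mouse also use. Of 18 motile cilium genes 4 were tested, and 1 was higher than in otic epithelium and 0 lower (median -0.03), while 3 were higher than in the 5 classes (median 2.20). The axonemal dyneins Dnah5, Dnah6, Dnah9 and Dnah11 had 0 UMIs in hair cells. Ntf3, a neurotrophin, had 83 and 0 UMIs in hair cells and 0 in otic epithelium, at least 47.6-fold higher, with all its UMIs in library 1, so that without the hair cells of library 1 its difference was lost (0.29 against otic epithelium, -3.64 against the 5 classes, with all-gene medians of -1.78 and -2.56). Among growth factors, 2 of 9 tested genes of 18 were higher than in otic epithelium and 3 lower (median -1.72), and 2 were higher and 5 lower than in the 5 classes (median -1.68).

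Respiratory genes and early response genes were tested as general cell functions. Of 40 oxidative phosphorylation genes, 0 were called against otic epithelium in either direction (edgeR, median -0.30) and 2 were lower than in the 5 classes (median -0.32), although mitochondrial transcripts themselves took a median of 9.44% of UMIs in hair cells of library 1 and 12.3% in library 2, against 4.38% and 4.87% in otic epithelium. Of 20 immediate early and heat shock genes, 7 were lower than in otic epithelium, 2 higher and 11 not called (median -1.41), and 14 were lower than in the 5 classes and 2 higher (median -2.77). Junb, an early response factor, was at 249 and 194 CPM in hair cells, against 1028 and 1001 CPM in otic epithelium (-2.41 ± 0.56, adjusted p = 2.90e-04). With cells of 2 or more rule genes counted as hair cells it was at -0.76 (adjusted p = 0.47), and with the stricter filter on cells (500 or more genes, mitochondrial UMIs up to 10%) its adjusted p was 0.051. The 2 higher genes were Hsp90aa1 and Hsph1, both chaperones, at 2.52 ± 0.53 and 3.32 ± 0.48. Without the otic epithelium of library 1 these gave adjusted p = 0.058 for Hsp90aa1 and 0.051 for Hsph1, and 3 of the 20 genes were lower. Without the hair cells of library 2, 4 were lower.

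**Figure D2:**
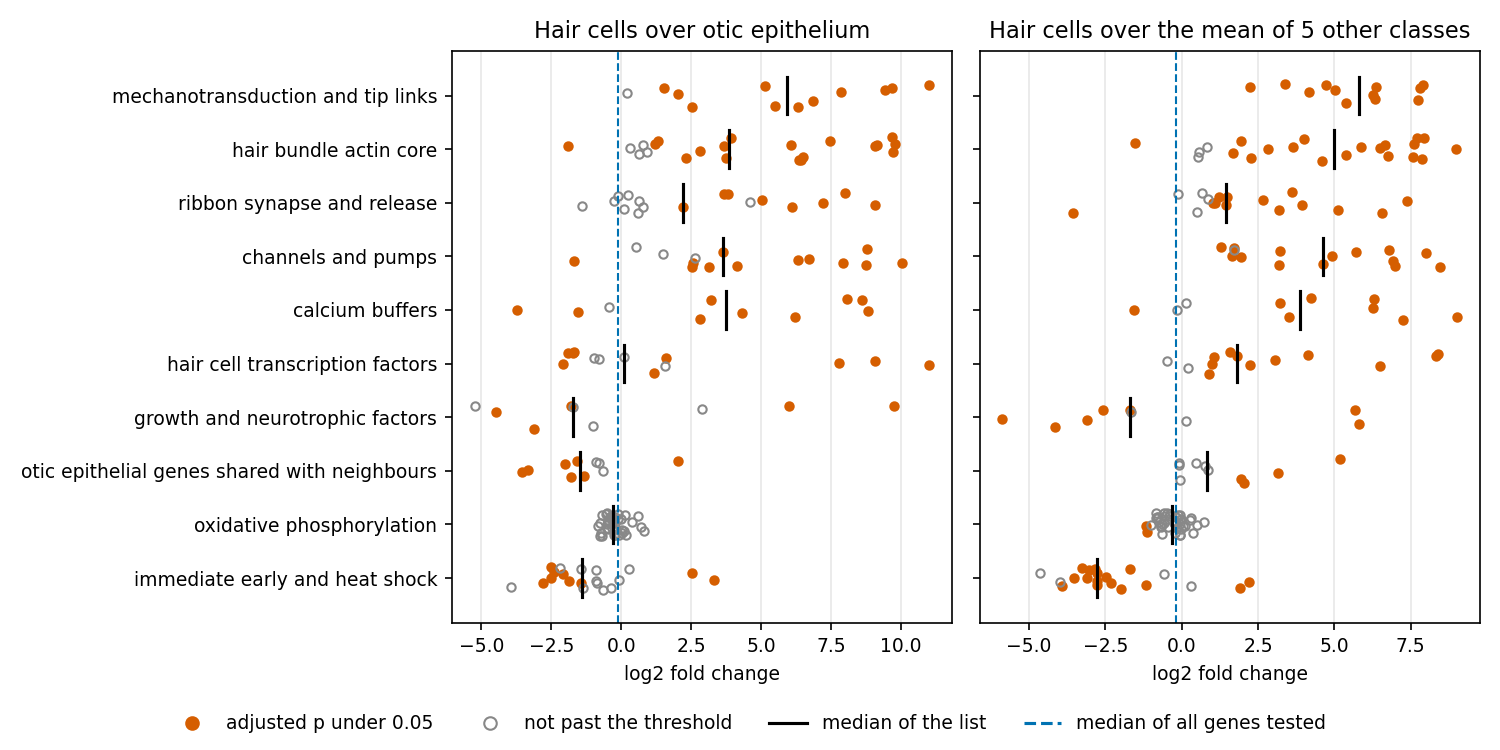
Log2 fold change of each tested gene of 10 lists, in hair cells over otic epithelium (left) and over the mean of the 5 other classes (right), with filled points past the threshold, black bars at the list median and a dashed line at the median of all genes tested. Fitted values of genes with no UMI in the other group depend on the fit's prior and are not bounds; mechanotransduction genes had medians of 5.90 and 5.81, oxidative phosphorylation genes -0.30 and -0.32.

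By rank of fold change, the 12 leading genes against otic epithelium, taken without predicted genes, all had 0 UMIs there, and their bounds ran from at least 64.7-fold for Trim36 to at least 269-fold for Apba1. Apba1, an adaptor of presynaptic vesicle exocytosis, had 422 and 47 UMIs in hair cells. Slc7a14, a lysosomal member of the amino acid transporter family, had 357 and 15 (at least 213-fold higher), and Rbm24, an RNA-binding protein that regulates splicing, had 206 and 25 (at least 132-fold higher). The others were Paqr9, Gfi1, Tomt, Strip2, Lrrc52, Lrtm2, Car7 and Tuba8. Lrrc52 encodes an auxiliary subunit of large-conductance potassium channels, and Car7 a carbonic anhydrase. With the DESeq2 Wald test, Gfi1 and Lrtm2 lost their call against otic epithelium (adjusted p = 0.28 and 0.25). Without the otic epithelium of library 1, Car7 gave adjusted p = 0.099.

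In the other comparison the 12 leading genes were Lrtm2, Ocm, Grxcr1, Rbm24, Pcp4, Chrna9, Kncn, Sema5b, Gfi1, Barhl1, Grin2c and March4. With the DESeq2 Wald test, Lrtm2 (adjusted p = 0.062), Grxcr1 (0.14), Chrna9 (0.16), Sema5b (0.13), Gfi1 (0.11) and Barhl1 (0.14) lost this call. Pcp4, a small peptide first known from Purkinje cells, had 10050 and 539 UMIs in hair cells, or 11431 and 14964 CPM, against mean levels of 54.2 and 5.88 CPM over the 5 classes, with a log2 fold change of 8.77 ± 0.38 (adjusted p = 3.45e-110). Kncn, kinocilin, a protein of the kinocilium and the microtubule-rich apex, was at 742 and 916 CPM in hair cells, against 1.81 and 0.649 CPM (8.40 ± 0.34). The 6 most strongly lower genes had 0 UMIs in hair cells in each comparison. They were Tmprss9, Spink8, Itpripl1, Hpgd, Pdzk1ip1 and Slco2a1 against otic epithelium, with 85 and 11 UMIs of Tmprss9 there, and Tor3a, Irf1, Zic2, Trabd2b, Tgfb1i1 and Eya2 against the 5 classes. Adjusted p ran from 1.89e-11 for Tmprss9 to 0.0115 for Hpgd against otic epithelium, and from 2.06e-07 for Tor3a to 4.91e-05 for Eya2 against the 5 classes. With cells of 2 or more rule genes counted as hair cells, Trabd2b was at -0.14 (edgeR, adjusted p = 0.91), Zic2 at -0.30 (0.78) and Eya2 at -1.08 (0.18). Hpgd lost its call with DESeq2 size factors (edgeR, adjusted p = 0.30) and with no replicate block (0.25). With the hair cells of library 1 left out, every one of the 12 lost its call (adjusted p from 0.22 to 0.73).

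Hair cells were not all alike. The groups below were defined after the values of single cells had been seen, so they are described with counts and no test, and cells of 1 library are not replicates. Members with at least 3 of Slc26a5, Chrna9, Chrna10, Calb1 and Kcnj13 are called the Chrna10 set (6 cells in library 1, 1 in library 2). Of the rest, 2 of library 1 had over 20% haemoglobin UMIs (haemoglobin-high), 19 had at least 3 of 8 supporting cell markers (the supporting-gene set), and 10 had under 5% mitochondrial UMIs (the mt-low set, 9 and 1). The remaining 20 are called the Slc17a8 set (18 and 2).

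The Chrna10 set was marked by Ocm, oncomodulin, the calcium buffer of outer hair cells (ENSMUSG00000029618, chr5:144019804-144026670, minus strand), although Ocm did not choose it. Its 6 cells of library 1 had 59 to 636 Ocm UMIs (median 477.5), and the 1 cell of library 2 had 63. The Slc17a8 set had 0 to 38 (median 1) in library 1, and 1 and 19 in its 2 cells of library 2. The sums were 26765 and 5897 CPM in the Chrna10 set, against 573 and 1034 CPM in the Slc17a8 set. By UMIs the cells of these sets did not overlap, but per 10000 UMIs of the cell they did, with 21.1 to 596 in the Chrna10 set of library 1, against 0 to 28.2 in the Slc17a8 set. Over all hair cells Ocm had 2609 and 83 UMIs and the median hair cell of library 1 had 1, and the 7 cells of the Chrna10 set held 2367 and 63 of the UMIs behind its log2 fold change of 9.02 ± 0.38 against the 5 classes.

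Several other genes listed for outer hair cells went the same way, Ikzf2 in library 1 only. Chrna10, a subunit of the acetylcholine receptor that receives the brainstem input (ENSMUSG00000066279, chr7:102111266-102116828, minus strand), and Kcnj13, an inward rectifier potassium channel, were used to choose the set, so their levels there are no finding. Lbh, a transcriptional cofactor of outer hair cells, had 127 and 34 UMIs in the Chrna10 set, against 3 and 0 in the Slc17a8 set. Strip2, a regulator of cytoskeleton and cell shape, had 60 and 27 UMIs, against 13 and 2. Ikzf2, the factor that consolidates the outer hair cell state, was seen in all 6 cells of the Chrna10 set in library 1 with 17 UMIs. It had 0 UMIs in the hair cells of library 2, among them the 1 cell of the Chrna10 set. In the Slc17a8 set it was seen in 0 of the 18 and 2 cells, but it also had 31 UMIs in 11 of 19 cells with supporting cell markers. Strc was at 328 and 281 CPM in the Chrna10 set, against 20.8 and 51.7 CPM.

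Genes listed for inner hair cells went the opposite way. Tbx2 had 0 UMIs in the Chrna10 set, against 77 and 4 in the Slc17a8 set, where it was seen in 17 of 18 and 2 of 2 cells. Atp2a3 had 0 UMIs in the Chrna10 set, against 302 and 35, and at least 7 UMIs in every cell of the Slc17a8 set. Dnajc5b, a cysteine string protein of synaptic vesicles, had 0 and 1 UMIs, against 103 and 7. Calb2 was at 317 and 842 CPM, against 8739 and 5793 CPM. Otof, the gene of the rule seen in every hair cell, was at 339 and 2247 CPM in the Chrna10 set, against 2975 and 4190 CPM, and Slc17a8 at 45.2 and 562 CPM, against 1837 and 3259 CPM. Pou4f3, at 746 and 562 CPM against 702 and 1034 CPM, and Cib2, at 3460 and 4119 CPM against 3943 and 3103 CPM, were not ordered alike in the libraries. Of 1269 genes with at least 30 UMIs in either set of library 1, 25 were over 4-fold higher and 86 over 4-fold lower in the Chrna10 set (CPM plus 10).

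Of the 15 genes with the largest ratio in each direction, those higher in the Chrna10 set included Olfm1, which encodes olfactomedin and had 92 and 27 UMIs against 1 and 0. They also included Tmem229a with 53 and 6 UMIs against 1 and 0, and Aqp11, an aquaporin, with 65 and 5 against 3 and 0. The ranking used library 1, and some of these genes did not repeat in library 2. Lockd, S100b and Marcksl1 had 80, 40 and 40 UMIs in the set in library 1 but 0 in library 2. S100a13 had 299 and 2 UMIs, against 38 and 3. Those lower included Rps6ka2, a ribosomal S6 kinase, with 0 and 0 UMIs against 128 and 26, and Kifap3, an adaptor of the kinesin motor, with 4 and 1 against 302 and 45. Epyc, which encodes a matrix proteoglycan and reached 5272 CPM in otic epithelium of library 1, had 113 and 0 UMIs in the Chrna10 set, 108 of them in 1 cell, against 15 and 1. One cell of the Chrna10 set also had 3 supporting cell markers.

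**Figure D3:**
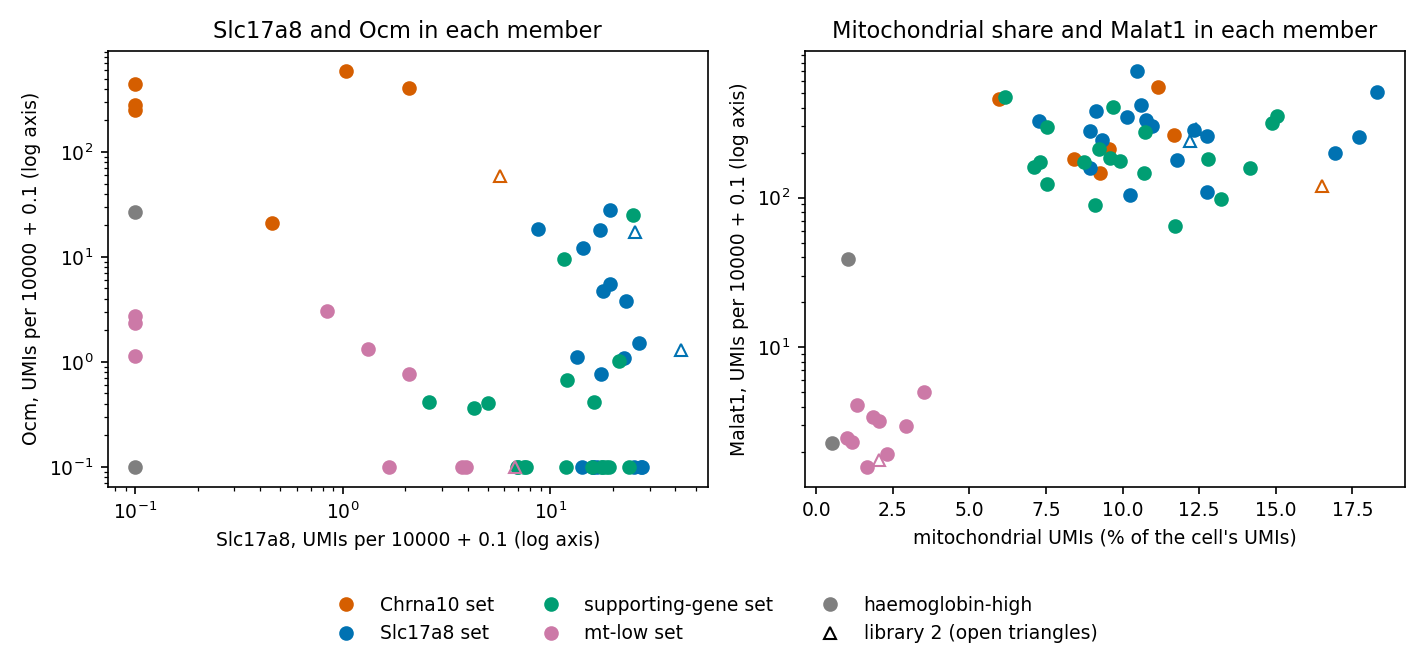
Left, UMIs per 10000 of Slc17a8 and of Ocm in each hair cell; right, share of mitochondrial UMIs and UMIs per 10000 of Malat1 (logarithmic axes except the mitochondrial share; 0.1 added to values per 10000; open triangles are library 2). All but 1 cell of the Chrna10 set lie above every other hair cell by Ocm (the lowest is at 21.1 per 10000, against up to 28.2 in the Slc17a8 set), and the cells of the mt-low set lie at 1.48 to 4.88 Malat1 UMIs per 10000, against 104 to 707 in the Slc17a8 set, with 1 haemoglobin-high cell at 2.20.

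The 19 cells with supporting cell markers all came from library 1. Supporting cells surround hair cells in the sensory epithelium and are coupled by gap junctions. These members had a median of 21616 UMIs and 5414 genes, against 14000.5 UMIs and 3901 genes in the Slc17a8 set of library 1. Slc1a3, a glutamate transporter of supporting cells and one of the markers that chose them, had 339 UMIs over all 19 cells, against 2 in the Slc17a8 set. Genes that did not choose them also differed. Sparc, a matrix glycoprotein, had 1922 UMIs, against 17, and Gjb2, connexin 26, had 405, against 4. Of 2498 genes, 197 were over 4-fold higher and 4 over 4-fold lower in this set.

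Acbd7, which did not choose the cells, was at 1390 CPM and seen in 19 of 19, against 3686 CPM in the Slc17a8 set of library 1, and Cib2 at 2096 CPM, also in 19 of 19, against 3943 CPM. Of the genes of the rule, Otof was at 1590 CPM, against 2975 CPM in library 1, and Slc17a8 at 1182 CPM, against 1837 CPM. Scrublet, a doublet caller, marked 2 of 1331 cells in library 1 and 4 of 644 in library 2, 1 of them a hair cell, and 0 of these 19 cells. It marked under 0.5% of the cells of library 1 and is taken as not informative. Whether these barcodes held more than 1 cell was not tested.

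Several comparisons depended on the 20 hair cells with at least 3 supporting cell markers (these 19 and 1 of the Chrna10 set). The supporting cell list itself chose these cells, so a fall of that list without them was set by the choice and is no finding. Without them, the supporting cell list had 0 of 6 genes higher and 6 lower than in the 5 classes, where with them 3 of 7 were higher and 0 lower (median 0.89). Against otic epithelium 4 of 7 were lower and 0 higher with them (median -1.59), and 6 of 6 lower without them. Sox2 was at -1.49 against the 5 classes without them (adjusted p = 0.18), where the median of all genes was -0.32. Epithelial genes shared with neighbours, such as Epcam and connexins, were 1 higher and 6 lower of 10 tested against otic epithelium (median -1.46), and 4 higher and 0 lower against the 5 classes (median 0.83), but 2 higher and 4 lower against the 5 classes without them. Counts for mechanotransduction genes did not move, with 11 of 12 higher than in otic epithelium without these cells.

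The set with few mitochondrial UMIs had 1.01% to 3.51% of them, against 7.28% to 18.3% in the Slc17a8 set. It also had little of the nuclear RNA Malat1, which the definition did not use. Malat1 had 28 and 1 UMIs (1.48 to 4.88 per 10000 in the cells of library 1), against 7225 and 504 in the Slc17a8 set (104 to 707 per 10000). Kcnq1ot1, another nuclear RNA, had 0 UMIs, against 44 in library 1, and Xist, the RNA that coats the inactive X chromosome, 2 against 219. Single hair cell messages lay on both sides of their level in the Slc17a8 set. Calb2 was at 25209 and 10996 CPM, against 8739 and 5793 CPM, Acbd7 at 6393 and 5665 CPM, against 3686 and 1707 CPM, and Cib2 at 7670 and 9164 CPM, against 3943 and 3103 CPM. Of 1253 genes, 0 were over 4-fold higher and 89 over 4-fold lower in this set.

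Cells with under 10 Malat1 UMIs per 10000 were also found in other classes, at different shares. They numbered 10 of 54 and 1 of 4 hair cells (18.5% and 25%), against 17 of 95 and 2 of 20 otic epithelium cells (17.9% and 10%), 32 and 5 Coch mesenchyme cells (10.6% and 2.23%) and 160 and 13 erythroid cells (53.9% and 56.5%). Leukocytes had 31 of 198 and 0 of 18, and fibroblasts 3 of 255 and 0 of 233. Of the genes of the rule, Otof was at 1984 and 2499 CPM in the mt-low set, against 2975 and 4190 CPM in the Slc17a8 set, and Slc17a8 at 147 and 666 CPM, against 1837 and 3259 CPM. Atp2a3 was at 157 and 333 CPM, against 1255 and 1810 CPM in the Slc17a8 set, and Tbx2 at 138 and 0 CPM, against 320 and 207 CPM. Whether the cells of this set had kept their nuclei was not tested.

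**Figure D4:**
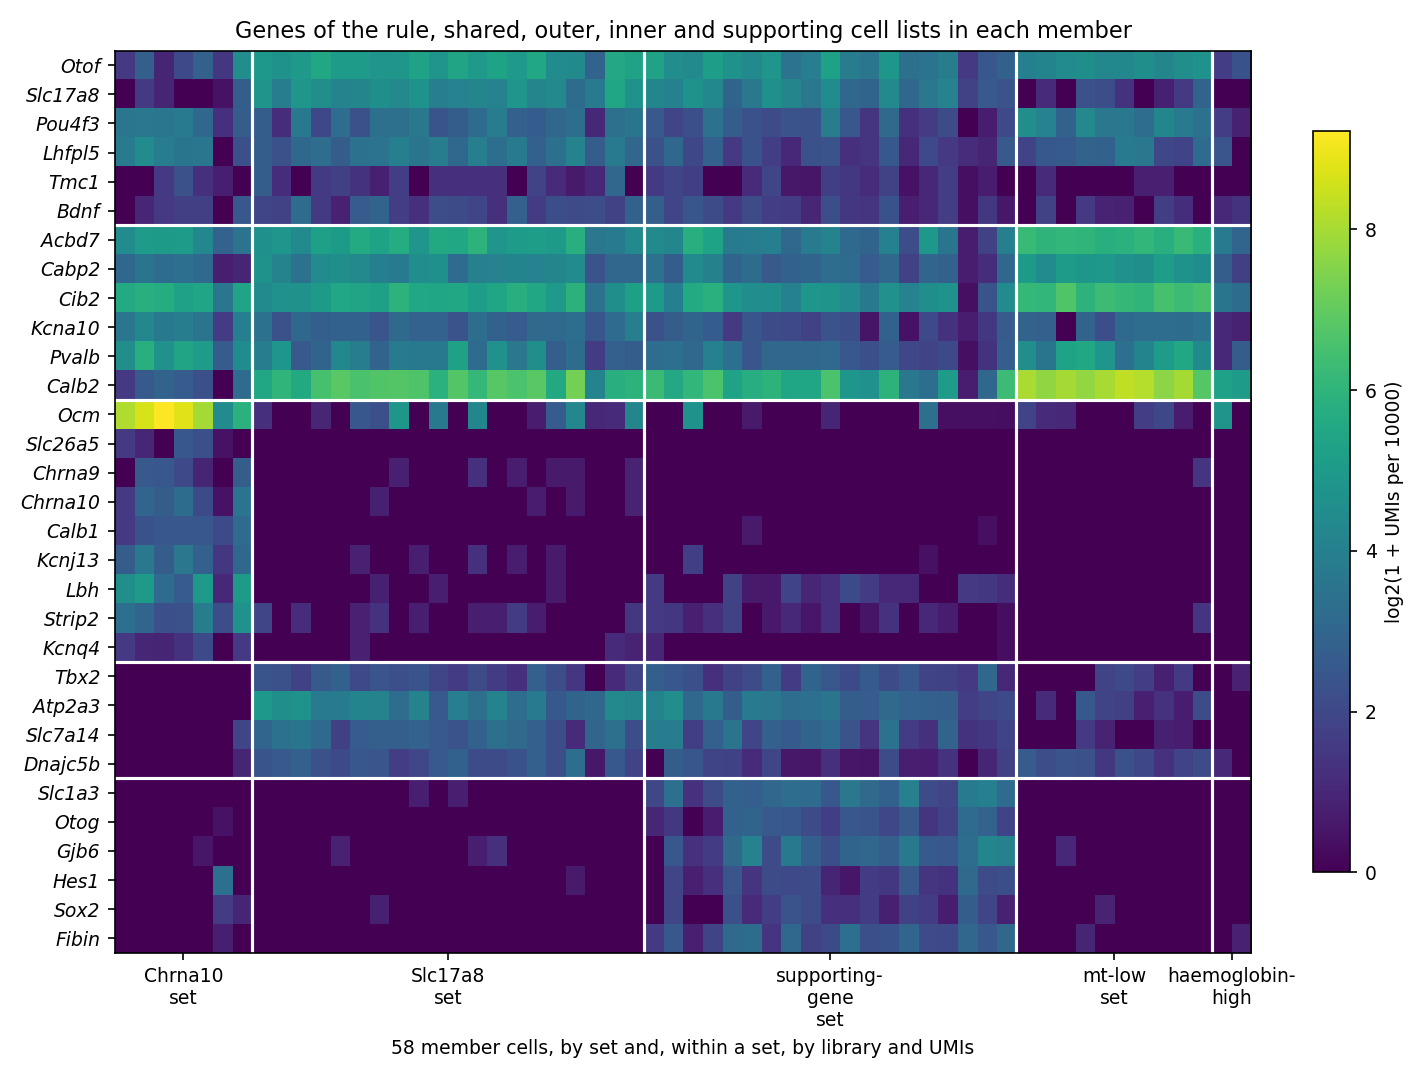
Each column is 1 of the 58 hair cells and each row a gene, coloured by log2(1 + UMIs per 10000), with white lines between the sets and between gene groups (from the top: the rule, shared hair cell genes, outer, inner and supporting cell genes). Ocm and Lbh fill the Chrna10 set, Atp2a3 and Tbx2 the Slc17a8 and supporting-gene sets, and Slc1a3 and Gjb6 the supporting-gene set, where Slc1a3 had 339 UMIs in 19 cells.

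Markers of other cells were spread over the members. At least 3 markers of some other class list were seen in 45 of 54 and 3 of 4 hair cells, most often of the Coch mesenchyme list (36 cells) and the myeloid list (27 cells). In a single hair cell, the Coch mesenchyme markers summed to between 1 and 22 UMIs in library 1 (median 6) and between 0 and 6 in library 2. Haemoglobin genes summed to a median of 106.5 UMIs per hair cell in library 1 and 21.5 in library 2. Neuron markers included Nefl and Nefm, the neurofilament genes, which were higher than in otic epithelium (2 of 5 tested genes, and 2 also against the 5 classes). Against the 5 classes, Nefm lost its call with DESeq2 size factors (edgeR, adjusted p = 0.13) and with the DESeq2 Wald test (0.055). With no replicate block, Nefm (edgeR, adjusted p = 0.21) and Nefl (0.078) both lost that call. Both calls against otic epithelium were lost with no replicate block (adjusted p = 0.23 for Nefl and 0.30 for Nefm) and without the otic epithelium of library 1, and Tubb3 and Rbfox3 had 0 UMIs in hair cells. Glial markers were 0 higher and 2 lower of 6 against otic epithelium, and 2 higher and 4 lower against the 5 classes, or 0 higher and 5 lower without the 20 cells with supporting cell markers. Sox10 stands in both the glial and the supporting cell list, so that last count was set in part by the cells left out. Of endothelial markers 0 of 4 were called against otic epithelium and 2 were lower than in the 5 classes, and of macrophage markers 0 of 6 and 2 lower. Of melanocyte markers 1 of 3, Kcnj13, was higher in either comparison, and Tyrp1, Pmel, Mlana and Tyr had 0 UMIs in hair cells. Of 4 haemoglobin genes 0 were called against otic epithelium and 4 were lower than in the 5 classes. Their part in the comparisons above was not tested beyond the fits that left cells out.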

How the data were processed

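The authors deposited 1 matrix of UMI counts per library, made with Cell Ranger 2.1.0 on the mm10 build per the submitters' processing notes; the counts are raw, for 27998 genes, and UMIs collapse PCR copies. Library 1 held 20212520 UMIs and library 2 held 7094752. Hair cells were the barcodes passing the rule, and the hair cells and all gene lists were chosen with earlier results of these data known. Other cells joined the class whose marker list had the largest share of genes seen, with at least 3 seen, and ties stayed unassigned. Counts were summed into 12 sums (6 classes in 2 libraries) and fitted with edgeR 4.0.16 in R 4.3.3 (glmQLFit robust and glmQLFTest after TMM scaling, with filterByExpr at min.count 10), leaving 12286 genes after 43 rule and marker genes were set aside.

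The library was the replicate block because classes of 1 library come from the same suspension. Deviations of same-library sums correlated at 0.0483 to 0.487 over 15 class pairs (median 0.0892). Genes named by rank were the 12 highest and 6 lowest log2 fold changes per comparison among called genes with the same direction in both libraries; other genes came from the lists. A fold against a group with no UMI was bounded by 3 counts over the group. The SE of a log2 fold change was its absolute value over the square root of the F statistic, so it restates the test. No doublets were removed. Poisson and binomial intervals are exact, at 95%. Scanpy 1.11.5, pandas 2.3.3, scipy 1.17.1, matplotlib 3.10.9 and, for alternatives, DESeq2 1.42.0 were used. Alternatives changed the scaling, the filters, the test, the block, the rule and the cells or sums left out.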

Additional observations from a re-analysis of the deposited data

Results flagged for a closer look

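Barcodes that the report's comparisons do not use held hair cell transcripts. Of the 4 barcodes of library 1 removed for mitochondrial UMIs, 2 had 4 and 5 of the 6 genes of the rule, with 34.9% and 40.8% mitochondrial UMIs and 5118 and 5457 UMIs in all. Together they had 44 UMIs of Slc17a8 and 0 of Ocm. Of the 16 barcodes removed for the same reason in library 2, 0 passed the rule.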

How the results depend on the processing

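Counts of called genes depended on the test, the cells and the sums used. The 1155 genes higher than in otic epithelium became 676 with the DESeq2 Wald test, 764 with no replicate block, 622 with a stricter filter on cells (500 or more genes, mitochondrial UMIs up to 10%), and 444 without hair cells that had markers of another class. The 1115 lower genes became 568, 505 and 512 under the first 3 of these. Against the 5 classes, the 2055 higher genes became 565 without hair cells that had markers of another class. The 1906 lower genes became 964 with the Wald test, 1253 with no replicate block, 931 with 2 of 6 rule genes, 743 with the stricter filter on cells and 776 without cells that had markers of another class. Leaving out 1 sum gave 351 to 1158 higher and 326 to 837 lower genes against otic epithelium, and 429 to 2142 higher and 324 to 1770 lower genes against the 5 classes. The stricter filter on cells kept 31 hair cells in library 1, 1 in library 2 and 32 in all. The sign changed for Tbx2 against otic epithelium (-0.60) and Ntf3 against the 5 classes (-3.64) without the hair cells of library 1, and for Sox2 against the 5 classes without cells that had markers of another class (-1.21) or of supporting cells (-1.49). The medians of all genes in these fits were -1.78, -2.56, -1.23 and -0.32 in that order, against -0.11 and -0.19 in the fits with all cells and sums. Leaving out 1 sum gave values from -0.60 to 1.63 for Tbx2 and from -3.64 to 6.11 for Ntf3. With no replicate block, 75 of 88 gene values kept direction and side of the threshold and 13 lost their call, and without the hair cells of library 1, 50 of 75 kept both. With the DESeq2 Wald test, 69 of 88 kept both and 19 lost their call. The cause of these changes was not tested. Alternatives that leave out hair cells by supporting markers, haemoglobin or few mitochondrial UMIs were chosen after seeing the data. Library 2, with 4 hair cells, limits every value.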
